A study of Mus musculus with 9 samples.

Results

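Pparg and 8 genes of fatty acid uptake and binding, namely Cd36, Fabp1, Fabp2, Fabp4, Fabp5, Fabp7, Slc27a2 and Slc27a4, were followed in mouse liver across a regular diet, a high-fat diet, and a high-fat diet given with an extract of ginseng flower buds (GFB). Each gene was found by its symbol in the annotation of the array, and the probe set with that symbol alone and the highest mean over the 9 arrays stood for it. All 9 genes were found, among 22180 genes tested. Pparg encodes PPAR-gamma, a nuclear receptor that binds fatty acids and, as a dimer with RXR, switches on genes of fatty acid uptake and storage. It is most active in fat tissue, is low in lean liver and is known to be raised in fatty liver. Cd36 encodes a fatty acid translocase of the cell surface, the Slc27a genes encode fatty acid transport proteins that also join fatty acids to coenzyme A, and the Fabp genes encode small proteins that carry fatty acids through the cytosol.

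The mice were C57BL/6 (spelled C56BL/6J in the labels' strain field) and 5 weeks old at the start, and 3 arrays were run for each group. Treatment lasted 12 weeks, with 500 mg/kg of the extract in daily oral doses for the GFB group and vehicle for the others. Every liver was taken after a fast overnight. The labels give no sex, and nothing in them ties the arrays of a group to different mice. The p-values therefore measure only the spread between these samples, which may be technical. RNA was hybridised to whole-transcript microarrays, and all values are log2 expression after RMA, a procedure that puts all arrays on the same scale. Array medians ran from 4.34 to 4.38, and with 3 arrays a group their number limits how precise any value is. The median of the gene means, 4.74, served as a guide to background, and all 9 genes lay above it on every array. All 11 measured of 12 hepatocyte markers lay above it as well, with Alb, the albumin gene, between 13.48 and 13.57.

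PPAR-gamma and its relative PPAR-alpha bind with RXR to a direct repeat of the hexamer AGGTCA that is called DR1, in which 2 copies stand in the same direction with 1 base of any kind between them. The 250 bases before the annotated start sites were searched for this motif on both strands, since Cd36 and Fabp1 are textbook targets of the PPAR receptors. The windows come from RefSeq, build GRCm38.p6, and held 9 start sites of 7 of the genes, 3 of them for Pparg. Fabp4 and Fabp5 had no entry. Windows are shown 5′ to 3′ for the first and the last start site of Pparg and for Cd36, Fabp1 and Fabp2, with capitals on each AGGTCA hexamer and on each DR1 match that differs in at most 2 of its 12 fixed letters.
Pparg, the first start site, chr6:115360894-115361143, plus strand: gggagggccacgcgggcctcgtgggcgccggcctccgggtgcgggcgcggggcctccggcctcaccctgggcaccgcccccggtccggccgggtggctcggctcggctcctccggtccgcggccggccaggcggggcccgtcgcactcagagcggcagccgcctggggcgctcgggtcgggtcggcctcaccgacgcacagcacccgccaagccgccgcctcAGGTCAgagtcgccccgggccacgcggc
Pparg, the last start site, chr6:115421816-115422065, plus strand: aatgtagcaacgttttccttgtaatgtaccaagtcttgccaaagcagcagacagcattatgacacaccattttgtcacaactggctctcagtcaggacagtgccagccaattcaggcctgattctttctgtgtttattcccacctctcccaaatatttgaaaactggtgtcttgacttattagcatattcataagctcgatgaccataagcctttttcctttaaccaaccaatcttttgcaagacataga
Cd36, chr5:17835897-17836146, minus strand: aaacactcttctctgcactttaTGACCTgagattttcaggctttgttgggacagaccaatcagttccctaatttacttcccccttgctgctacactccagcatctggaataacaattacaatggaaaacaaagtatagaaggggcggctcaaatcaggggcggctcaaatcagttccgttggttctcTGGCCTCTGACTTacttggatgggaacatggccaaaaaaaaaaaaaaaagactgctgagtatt
Fabp1, chr6:71199629-71199878, plus strand: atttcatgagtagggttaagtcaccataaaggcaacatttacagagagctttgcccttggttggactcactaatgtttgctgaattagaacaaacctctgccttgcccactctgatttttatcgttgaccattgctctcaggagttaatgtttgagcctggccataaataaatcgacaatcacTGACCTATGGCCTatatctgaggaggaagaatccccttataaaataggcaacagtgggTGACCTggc
Fabp2, chr3:122894822-122895071, plus strand: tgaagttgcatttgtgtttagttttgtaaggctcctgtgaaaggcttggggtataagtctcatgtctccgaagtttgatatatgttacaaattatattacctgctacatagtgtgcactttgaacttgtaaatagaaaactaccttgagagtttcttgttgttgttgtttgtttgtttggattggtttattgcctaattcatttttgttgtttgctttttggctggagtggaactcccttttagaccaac
An exact DR1 was in 0 of the 9 windows and in 0.0335% of all 32851 windows searched. A match with at most 2 differing letters was in 2 of the 9 and in 3.24% of all. Fabp1 held 1 that differs in 1 letter, starting 67 bases before the start site, and Cd36 held 1 that differs in 2 letters, starting 63 bases before it. The hexamer alone, which a DR1 match can contain, was in 6 of the 9 windows and in 14% of all. Fabp2, Slc27a4 and the last start site of Pparg held none of these matches, which says nothing about binding of the receptors. The array values do not separate the transcripts of Pparg that begin at these sites.

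Pparg was higher on the high-fat diet than on the regular diet, and lay between these groups with the extract. On the regular diet its arrays read 6.09, 6.00 and 6.47. On the high-fat diet they read 6.98, 7.41 and 7.63, and with the extract 6.98, 6.84 and 6.47. All 3 high-fat diet arrays and all 3 extract arrays lay above the regular diet, the closest extract array by 0.0021, and the high-fat diet and extract arrays overlapped. The group means were 6.19 ± 0.25 (SD, n = 3), 7.34 ± 0.33 and 6.77 ± 0.26. Against the regular diet Pparg rose 2.23-fold on the high-fat diet (log2 difference 1.15 ± 0.20 SE, 95% interval 0.71 to 1.59, limma adjusted p = 0.0287). In a whole-tissue sample, fewer cells of a type and less RNA per cell cannot be told apart, here and in all that follows.

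The extract group differed from the high-fat diet by -0.58 ± 0.20 in Pparg (95% interval -1.02 to -0.14, limma adjusted p = 0.734) and from the regular diet by 0.58 ± 0.20 (0.14 to 1.02, limma adjusted p = 0.282). Neither step in the order high-fat diet, extract, regular diet passed between neighbours. The rise on the diet kept its direction in all 17 alternatives, from 1.01 to 1.34, but it passed in 10 of them. It was not called without high-fat diet replicate 2 (limma adjusted p = 0.106) or 3 (0.0973), regular diet replicate 1 (0.0566) or 2 (0.109), or extract replicate 2 (0.0589). Fitted on the 6 arrays compared, its limma adjusted p was 0.0987. Taking both high-fat-fed groups together, Pparg was 0.87 ± 0.17 above the regular diet and passed (limma adjusted p = 0.0408). That call was kept without high-fat diet replicate 1 or extract replicate 3 and was lost without any of the other 7 arrays, with limma adjusted p up to 0.174.

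**Figure D1:**
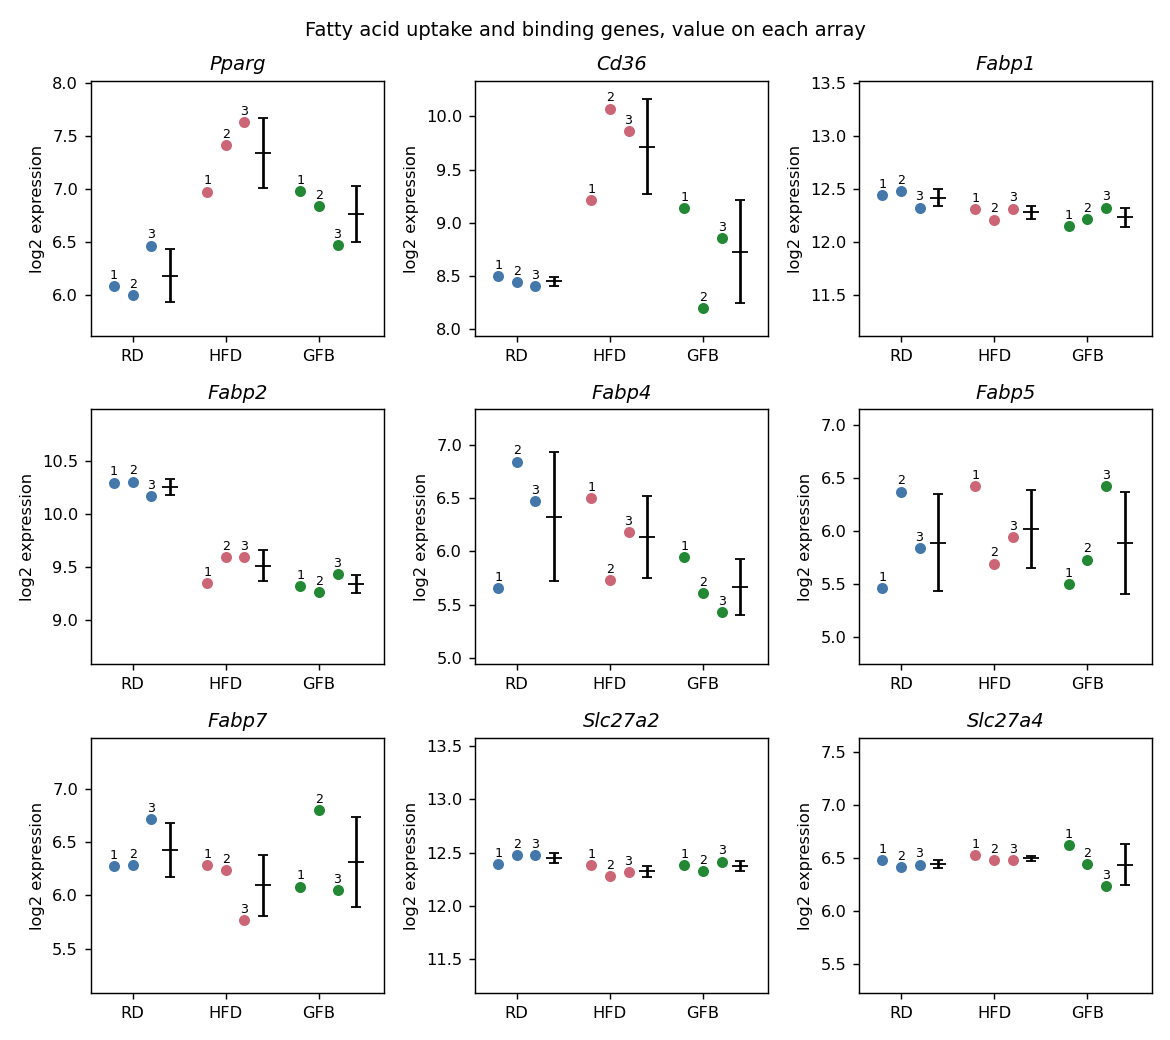
Log2 expression (y axis, the same span in each panel) of the 9 genes on each array (x axis: regular diet RD, high-fat diet HFD, high-fat diet with extract GFB); numbers are replicate numbers, and the bar beside each group is the mean ± SD of 3 arrays. Pparg and Cd36 are highest on the high-fat diet, and Fabp2 is lower in both high-fat-fed groups, between 9.26 and 9.59 against 10.16 to 10.30.

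Cd36, at 1.27 between the high-fat and the regular diet, had the largest difference among the 9 genes in any comparison made, but did not pass. The regular diet arrays were close together at 8.50, 8.44 and 8.41, whereas the high-fat diet arrays read 9.21, 10.07 and 9.86. The extract arrays read 9.14, 8.19 and 8.85, so that replicate 2 lay below and replicates 1 and 3 above every regular diet array. The high-fat diet arrays lay above all others, by 0.07 at the closest, and the extract and regular diet arrays overlapped. The means were 8.45 ± 0.045 (SD, n = 3) on the regular diet, 9.72 ± 0.45 on the high-fat diet and 8.73 ± 0.49 with the extract.

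The high-fat diet mean of Cd36 was 2.41 times the regular diet mean (log2 difference 1.27 ± 0.26, 95% interval 0.69 to 1.85, limma adjusted p = 0.0539). It passed without high-fat diet replicate 1, its lowest array on that diet (1.52, limma adjusted p = 0.0444), and without extract replicate 2 (1.27, limma adjusted p = 0.0405). Shifting the arrays to the same median, normalizing the quantiles once more, a variance trend with robust moderation, and testing only the brighter genes brought it past the threshold too, with limma adjusted p from 0.0258 to 0.0499. With the extract, Cd36 was 0.99 ± 0.26 lower than on the high-fat diet alone (difference -0.99, 95% interval -1.57 to -0.41, limma adjusted p = 0.606). That difference ran from -1.24 to -0.72 over the alternatives, and passed in none of them (lowest limma adjusted p = 0.343). The extract group stood 0.28 ± 0.26 above the regular diet (95% interval -0.30 to 0.86, limma adjusted p = 0.720).

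Fabp2 fell on the high-fat diet, and fell against the regular diet with the extract too. The gene encodes the intestinal fatty acid binding protein, known mainly from the absorbing cells of the small intestine. Its regular diet arrays read 10.29, 10.30 and 10.16. The high-fat diet arrays read 9.35, 9.59 and 9.59, and the extract arrays 9.32, 9.26 and 9.43. Every high-fat-fed array lay at least 0.57 below every regular diet array, and the high-fat diet and extract arrays overlapped. It fell 1.67-fold on the high-fat diet (-0.74 ± 0.09, 95% interval -0.95 to -0.54, limma adjusted p = 0.0115) and 1.88-fold with the extract against the regular diet (-0.91 ± 0.09, limma adjusted p = 0.00783). The extract and high-fat diet groups differed by -0.17 ± 0.09 (95% interval -0.38 to 0.03, limma adjusted p = 0.852).

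Leaving out any 1 array kept the fall of Fabp2 on the high-fat diet (-0.79 to -0.66, highest limma adjusted p = 0.0498), while a fit of the 6 arrays compared did not (0.0647). Against the regular diet, the fall with the extract was not called without extract replicate 1 (-0.91, limma adjusted p = 0.0610) or 2 (-0.88, 0.0608). For both high-fat-fed groups together it was -0.83 ± 0.08 (limma adjusted p = 0.00344), and that call was kept in all 16 alternatives. Of the 8 measured enterocyte markers, 7 lay under 4.74 on every array, among them Vil1, Alpi, Sis and Lct. The log2 of their summed linear values was 7.05 to 7.11 on the regular diet, 7.06 to 7.16 on the high-fat diet and 7.06 to 7.18 with the extract, and these ranges overlapped.

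Fabp1, the abundant fatty acid binding protein gene of hepatocytes, differed far less. It read 12.45, 12.48 and 12.33 on the regular diet, 12.31, 12.21 and 12.32 on the high-fat diet, and 12.15, 12.22 and 12.33 with the extract. Both high-fat-fed groups lay below the regular diet arrays without overlap, by 0.0094 and 0.0001 at the closest. The differences from the regular diet were -0.14 ± 0.08 on the high-fat diet (95% interval -0.31 to 0.04, limma adjusted p = 0.503) and -0.19 ± 0.08 with the extract (-0.36 to -0.01, limma adjusted p = 0.384), and the extract group differed from the high-fat diet by -0.05 ± 0.08. None of these passed.

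None of the other binding protein genes passed in any comparison. Fabp4, known from adipocytes, macrophages and capillary endothelium, read 5.66, 6.85 and 6.48 on the regular diet, 6.50, 5.73 and 6.18 on the high-fat diet and 5.95, 5.61 and 5.43 with the extract. Regular diet replicate 1 lay 0.67 below the mean of its group, within the range of the extract arrays. The extract group was the lowest, at -0.66 ± 0.30 against the regular diet (95% interval -1.33 to 0.0038, limma adjusted p = 0.418) and -0.48 ± 0.30 against the high-fat diet (-1.14 to 0.19, limma adjusted p = 0.863). Without regular diet replicate 1 the first of these was -1.0 (limma adjusted p = 0.102).

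Fabp5, the epidermal form, also found in macrophages, read 5.46, 6.37 and 5.84 on the regular diet, 6.42, 5.69 and 5.94 on the high-fat diet and 5.50, 5.73 and 6.42 with the extract. The groups overlapped throughout, and the 3 differences lay between -0.13 and 0.13, each with a standard error of 0.29. Fabp5 has 3 further probe sets, and processed copies of the gene in the mouse genome make the assignment of their signal uncertain. Of these, 2 spanned over 2 log2 units across arrays, from 3.73 in regular diet replicate 1 to 5.88 in high-fat diet replicate 1 and from 3.40 to 5.69 in the same arrays. In all 4 probe sets of the gene, high-fat diet replicate 1 was the highest array of its group and replicate 2 the lowest.

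Fabp7, known from the developing brain and also found in liver, read 6.28, 6.29 and 6.72 on the regular diet, 6.29, 6.24 and 5.76 on the high-fat diet, and 6.08, 6.80 and 6.05 with the extract. Extract replicate 2 was the highest of the 9 arrays. The high-fat diet differed from the regular diet by -0.33 ± 0.22 (95% interval -0.84 to 0.17, limma adjusted p = 0.590) and the extract from the high-fat diet by 0.22 ± 0.22 (-0.29 to 0.72, limma adjusted p = 0.918).

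The transport protein genes differed little. Slc27a2, the main fatty acid transport protein gene of liver together with Slc27a5, read 12.39, 12.48 and 12.47 on the regular diet, 12.38, 12.28 and 12.31 on the high-fat diet and 12.38, 12.33 and 12.41 with the extract. The high-fat diet arrays lay just below the regular diet arrays without overlap, by 0.01 at the closest, at -0.12 ± 0.07 (95% interval -0.27 to 0.03, limma adjusted p = 0.480). With the extract the difference from the high-fat diet was 0.05 ± 0.07. A second, dimmer probe set of Slc27a2, with a mean of 5.05, differed by -0.23 ± 0.09 on the high-fat diet. Slc27a4, the form of the gut and skin, lay between 6.24 and 6.62 on all 9 arrays, and its 3 differences were between -0.06 and 0.05 with a standard error of 0.09. The 95% intervals of these comparisons reached from -0.27 to 0.27 at their widest.

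**Figure D2:**
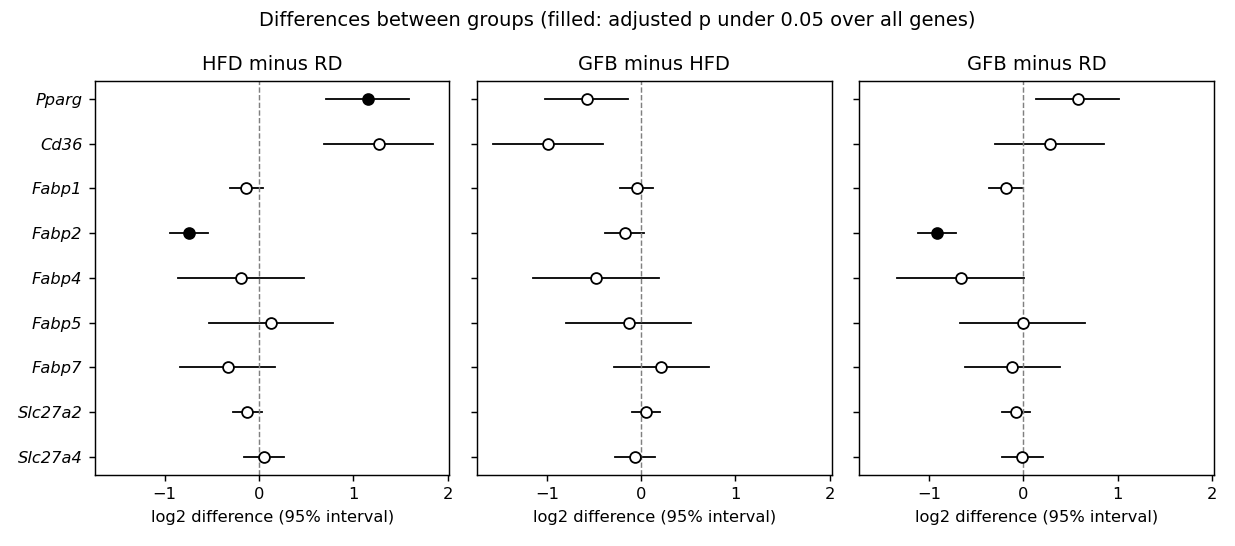
Log2 difference (x axis) with its 95% interval from limma for the 9 genes (y axis) in 3 comparisons of 3 arrays against 3; filled points passed an adjusted p under 0.05 over 22180 genes. Pparg and Fabp2 passed for the high-fat against the regular diet, Fabp2 alone for the extract against the regular diet, and no gene for the extract against the high-fat diet.

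Counted over the set, 2 of the 9 genes changed between the high-fat and the regular diet, Pparg upward and Fabp2 downward, where 1.34% of all genes tested were called (0.821% higher and 0.518% lower). The arrays of these groups did not overlap for 5 of the 9, against 15.8% of all genes. Pparg and Cd36 were above (7.93% of all genes) and Fabp1, Fabp2 and Slc27a2 below (7.86%). The median difference of the 9 was -0.12, beside 6.8e-05 over all genes. For the extract against the high-fat diet, limma called 0 of the 9, and 0.00451% of all genes, the single call being in the higher direction (0.00451%, and 0% lower). At an unadjusted p under 0.05 there were 2, Pparg and Cd36, both lower with the extract, where 5.98% of all genes reached that level. The groups did not overlap for Cd36 alone among the 9, against 9.69% of all genes. Of all genes 5.27% lay lower without overlap, as Cd36 did, and 4.42% higher. In this comparison 7 of the 9 were lower, with a median of -0.13 beside -0.0015.

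For the extract against the regular diet, 1 of the 9 was called, Fabp2, where 0.442% of all genes were (0.261% higher and 0.18% lower). The arrays did not overlap for 3, namely Pparg above and Fabp1 and Fabp2 below, against 14.6% of all genes (7% above and 7.62% below). For both high-fat-fed groups together, Pparg and Fabp2 were called, 2 of the 9, beside 1.68% of all genes (0.933% higher and 0.744% lower). All 6 of these arrays lay above the regular diet for Pparg and below it for Fabp1 and Fabp2, 3 of the 9, against 7.9% of all genes (3.8% above and 4.11% below). These comparisons share arrays and are not independent of each other. The 9 genes were chosen with earlier results of these data known, so their counts beside the shares of all genes are no test of the set.

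High-fat diet replicate 1 was the lowest of its group for Pparg, Cd36 and Fabp2, by 0.36, 0.50 and 0.17 below the group means. For Fabp4, Fabp5, Fabp7, Slc27a2 and Slc27a4 it was the highest of its group. Extract replicate 2 was the lowest of its group for Cd36 (0.54 below the mean), Fabp2 and Slc27a2, and the highest for Fabp7.

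**Figure D3:**
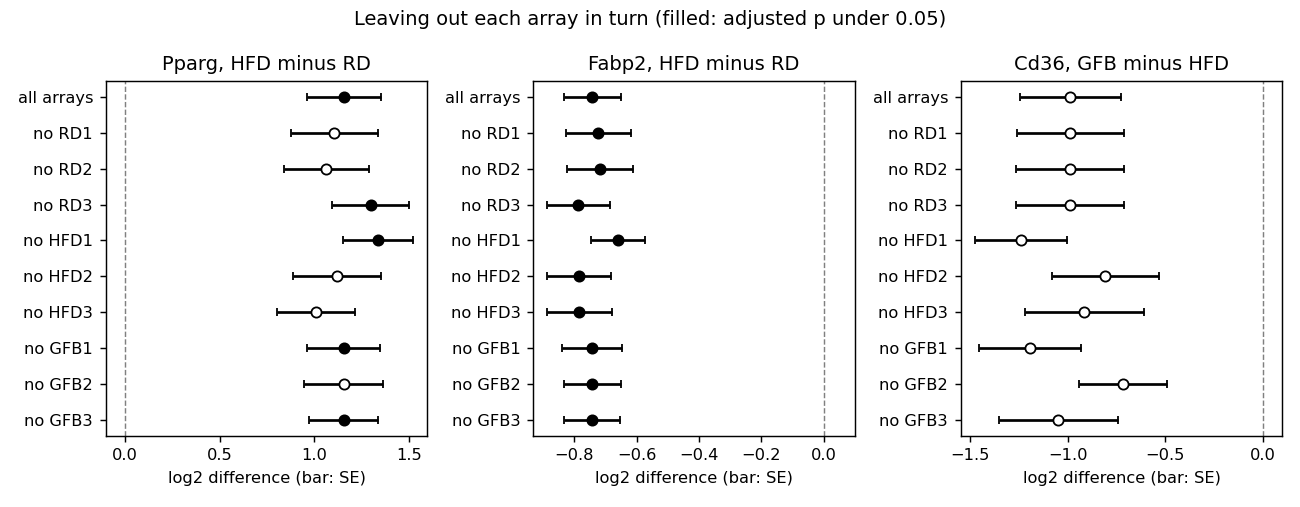
Log2 difference (x axis, bar: standard error) of Pparg and Fabp2 between the high-fat and the regular diet, and of Cd36 between extract and high-fat diet, with all 9 arrays and with each array left out (y axis); filled points have a limma adjusted p under 0.05. Fabp2 passes throughout, Pparg passes without 4 of the 9 arrays, and Cd36 passes without none of them.

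Genes that act with the set were taken from lists of related pathways. Among 18 measured genes known as PPAR-gamma targets of lipid storage, 2 rose on the high-fat diet and 9 were higher, with a median of 0.01. Of all genes tested, 0.821% rose. Those that rose were Plin4 (1.38 ± 0.19, limma adjusted p = 0.0145), which encodes a coat protein of lipid droplets, and Fitm1 (1.25 ± 0.13, limma adjusted p = 0.00567), which encodes a protein of droplet formation. Agpat2, an enzyme gene of triglyceride assembly, stood at 0.59 ± 0.12 (limma adjusted p = 0.0514). With the extract against the high-fat diet, 16 of the 18 were lower, with a median of -0.27 beside -0.0015 over all genes, and 0 were called. The smallest p-values there belonged to Fitm1 (-0.60 ± 0.13, limma adjusted p = 0.400), Plin4 (-0.89 ± 0.19, 0.422) and the droplet coat gene Plin2 (-0.55 ± 0.14, 0.574). Cidec, which encodes a droplet fusion protein, read 6.83, 8.52 and 9.42 on the regular diet, 7.17, 7.47 and 8.41 on the high-fat diet and 5.53, 5.43 and 6.23 with the extract. The extract arrays lay below all 6 others, and the difference from the regular diet was -2.53 ± 0.58 (limma adjusted p = 0.127).

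PPAR-alpha targets include the genes of fatty acid oxidation that the related receptor switches on in fasting liver. Of 19 measured, 4 fell on the high-fat diet and 17 were lower, with a median of -0.36, where 0.518% of all genes tested fell. The 2 that were higher, named after their values were seen, were Pex11a of peroxisome division (0.41 ± 0.13, limma adjusted p = 0.215, without overlap) and the carnitine carrier gene Slc25a20 (0.09 ± 0.07). The 4 that fell were Ehhadh, a peroxisomal oxidation enzyme (-1.87 ± 0.20, limma adjusted p = 0.00687), the thioesterase gene Acot1 (-1.77 ± 0.15), the fatty acid hydroxylase gene Cyp4a14 (-0.98 ± 0.19) and Hadha of mitochondrial oxidation (-0.49 ± 0.07). Acot1 and Cyp4a14 have near-identical relatives, so the assignment of their signal is uncertain. With the extract against the regular diet all 19 were lower and 2 fell, Ehhadh and Acot1, where 0.18% of all genes fell. Against the high-fat diet 0 of the 19 were called, with a median of -0.06.

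Among the receptors and their partners, 18 measured, 0 were called in any comparison. Ppara, the PPAR-alpha gene, lay between 8.87 and 9.40 and Rxra between 9.03 and 9.40 on all 9 arrays. Ppargc1a, which encodes a coactivator of the PPAR receptors, had the smallest p on the high-fat diet at -1.04 ± 0.31 (limma adjusted p = 0.170). It read 6.71, 8.11 and 7.24 on the regular diet, 6.05, 6.67 and 6.22 on the high-fat diet and 6.48, 6.52 and 6.10 with the extract, and both high-fat-fed groups lay below every regular diet array.

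Of 15 measured genes of other fatty acid uptake and lipolysis at the vessel wall, Scarb2, a lysosomal relative of Cd36, fell on the high-fat diet (-0.37 ± 0.07, limma adjusted p = 0.0399). Slc27a1, a transport protein gene of muscle and fat, stood at -0.96 ± 0.36 (limma adjusted p = 0.283), with regular diet arrays at 6.11, 7.86 and 7.22. Of 14 other genes of fatty acid and acyl-CoA binding, 0 were called in any comparison, and 8 lay under 4.74 on every array. Of 12 acyl-CoA synthetase genes, Acsm1 of medium-chain activation rose on the high-fat diet (0.47 ± 0.09, limma adjusted p = 0.0408), and Acsm5 stood at 0.61 ± 0.13 (0.0632). For both high-fat-fed groups together, Acsm1 (0.49 ± 0.08, limma adjusted p = 0.0186) and Acsm5 (0.56 ± 0.11, 0.0477) rose, and Scarb2 fell (-0.32 ± 0.06, 0.0383). For the extract against the high-fat diet, 0 genes of these 3 lists were called. Of all genes tested, 1.34% were called on the high-fat diet and 1.68% for both high-fat-fed groups together.

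**Figure D4:**
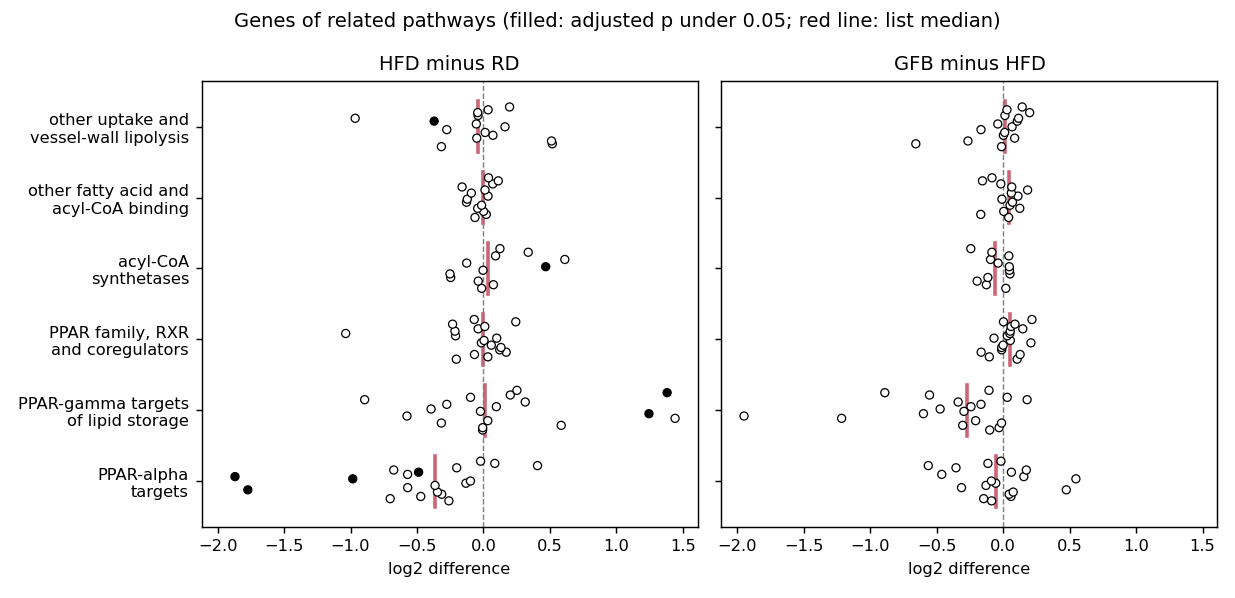
Log2 difference (x axis) of each measured gene in 6 lists of related pathways (y axis) for the high-fat against the regular diet and the extract against the high-fat diet; filled points have a limma adjusted p under 0.05 and red lines are list medians. The PPAR-alpha targets have a median of -0.36 on the diet, and the PPAR-gamma targets of lipid storage have a median of -0.27 with the extract.

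For the 5 genes of the set that ranged over at least 1 log2 unit, the genes closest in pattern over the 9 arrays were found by the root mean square difference after each gene's mean was subtracted. Closest to Pparg, whose own root mean square around its mean was 0.53, were Ms4a4c (0.18), Fitm1 (0.22) and Plin4 (0.22). Closest to Cd36, with 0.63 of its own, were Plin4 (0.27), Ms4a4c (0.28) and Sprr1a (0.28), so that Plin4 and Ms4a4c stood near both. Ms4a4c lay under 4.74 on every regular diet and extract array and on 2 of 3 high-fat diet arrays. Closest to Fabp2, with 0.41 of its own, were Hal (0.14), which encodes the histidine-degrading enzyme histidase, the peroxisomal thiolase gene Acaa1b (0.16), and Lgals4 (0.17), which encodes galectin 4. Fabp4 was followed by Spata31d1b, Syne3 and Lmo4 at 0.25 to 0.26, against 0.46 of its own, and Fabp7 by Olfr1484, Pdcd2l and Cd163 at 0.13 to 0.15, against 0.30 of its own. Spata31d1b and Olfr1484 lay under 4.74 on all 9 arrays, and Sprr1a on 8 of 9.

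Pparg, Cd36, Fabp4 and Fabp5 are also expressed in adipocytes, macrophages or endothelial cells, and markers of these cells were measured beside them. Of 8 measured white adipose markers, 0 were called, and Adipoq, Lep, Adig and Slc2a4 lay under 4.74 on every array, with Adipoq between 3.36 and 3.55. The log2 of the summed linear values was 7.52 to 7.77 on the regular diet, 7.70 to 7.86 on the high-fat diet and 7.70 to 7.77 with the extract. Of 15 measured macrophage markers, 9 were higher in the high-fat diet group than on the regular diet, and Cd9 fell (-0.74 ± 0.10, limma adjusted p = 0.0145), with sums of 10.20 to 10.73, 10.40 to 10.69 and 10.20 to 10.62. Of all genes tested, 0.518% fell on the high-fat diet. Cd9 is also known from lipid-laden macrophages. Among other such genes, Trem2, named here after its values were seen, differed by 0.06 ± 0.10 (limma adjusted p = 0.835), with group means of 5.12, 5.18 and 5.06. Gpnmb stood at 0.61 ± 0.18 on the high-fat diet (limma adjusted p = 0.162) and -0.80 ± 0.18 with the extract (0.477), and its regular diet mean of 4.37 and extract mean of 4.17 lay under 4.74. Mmp12 stood at 0.86 ± 0.26 (0.172) and -0.70 ± 0.26 (0.785), and all 3 of its group means lay under 4.74. Itgax stood at 0.53 ± 0.13 (0.0884) and -0.32 ± 0.13 (0.802), and lay under 4.74 on every array. With the extract against the high-fat diet, 5 of the 15 macrophage markers were higher and 10 lower. Of 11 endothelial markers 0 were called, with sums of 10.63 to 10.85, 10.41 to 10.69 and 10.64 to 10.93. The part of these cells in the levels of Pparg and Cd36 was not tested.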

How the data were processed

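The deposited values were log2 expression values per probe set, which the authors made with oligo, an R package, and its RMA procedure (robust multi-array average) according to the submitters' processing notes. Versions, genome build and scan batches are not given in the sources used here. RMA corrects background, gives every array the same distribution of values and combines probes into probe sets, which would remove any change common to most genes. Of 41345 probe sets, 23521 had 1 gene symbol, 1814 several and 16010 none, and the brightest single-symbol probe set stood for each of 22180 genes. The symbols matched RefSeq by gene ID for 21994 of them, and 186 had no match.

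A mean per group was fitted to all 9 arrays with limma 3.58.1 in R 4.3.3 (6 residual and 3.28 prior degrees of freedom). Changes were called at p under 0.05 after Benjamini-Hochberg adjustment across all genes, two-sided, and the procedure was tested on simulated data. An exact permutation test of 3 arrays against 3 could not go below p = 0.1 and was not used. The members and lists were chosen with earlier results of these data known. Besides the members, the text could name genes of a list that passed or had 1 of its 3 smallest p-values, and the 3 genes closest in pattern to a member with a range of at least 1.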

Additional observations from a re-analysis of the deposited data

How the results depend on the processing

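The direction of Pparg, Cd36, Fabp1, Fabp2 and Slc27a2 was kept in every comparison and alternative tried, while calls were not. Of the 9 genes, 2 changed between the high-fat and the regular diet, but 1 with the replicate number as a block (Fabp2; Pparg had a limma adjusted p of 0.0603), 0 with only the arrays compared, and 1 to 3 when each array was left out. For both high-fat-fed groups together the count was 1 with the replicate block and 1 to 2 with each array left out. For the extract against the regular diet it was 0 to 1 with each array left out. The replicate numbers were not taken to pair the arrays, since deviations of same-numbered arrays correlated from -0.051 to 0.17 over genes and 3 of 9 arrays correlated best with their own number.

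Counts over all genes moved more. High-fat against regular diet had 297 calls, 611 at an adjusted p under 0.10, 597 among the brighter genes, 15 with only the arrays compared, and 58 to 452 with each array left out. Extract against high-fat diet had 1 call, 4 at an adjusted p under 0.10, 4 among the brighter genes, 3 with array weights, 0 with only the arrays compared, and 0 to 3 with each array left out. Extract against regular diet had 98, and in the same order 216, 232, 34 with only the arrays compared, and 2 to 267. Both high-fat-fed groups together had 372, with 760, 707, 231 with the replicate block, and 63 to 553.

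The sign turned in uncalled differences close to 0. Fabp5 with the extract against the regular diet was -0.0058, but 0.033 with the mean of its probe sets, 0.0028 after quantile normalization once more, and -0.28 to 0.23 with each array left out. Fabp5 in both high-fat-fed groups together was -0.052 with array weights and -0.15 to 0.30 with each array left out. With each array left out it ran from -0.087 to 0.37 on the high-fat diet and from -0.40 to 0.069 for the extract against the high-fat diet. Slc27a4 with the extract against the regular diet was 0.027 with array weights and -0.10 to 0.090 with each array left out, -0.15 to 0.037 against the high-fat diet, and -0.025 to 0.071 for both groups together. Fabp4 on the high-fat diet ran from -0.52 to 0.071. Fabp7 ran from -0.029 to 0.35 for the extract against the high-fat diet and from -0.36 to 0.030 against the regular diet. The cause of these changes was not tested. Values near 4.74 or below may be background, for which 4.74, the median of the gene means, is only a guide.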

Other observations

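Among markers of the remaining cell types, 2 of 10 measured stellate cell markers changed between the high-fat and the regular diet, the collagen genes Col3a1 and Col1a1, both upward. Of all genes tested, 1.34% were called, and 0.821% of all genes tested were called upward. Of the 10, 5 were higher and 5 lower, with a median of -0.04. Dcn, the decorin gene, was lower without overlap (-0.38 ± 0.11, limma adjusted p = 0.149). The log2 of the summed linear values was 10.80 to 11.11 on the regular diet, 10.75 to 10.80 on the high-fat diet and 10.82 to 11.01 with the extract. Dcn, at 9.74 to 10.37, was the brightest of the 10 on every array, so these sums mostly follow Dcn. Col3a1, a fibrillar collagen gene, read 6.01, 5.94 and 6.20 on the regular diet, 6.84, 7.27 and 7.45 on the high-fat diet and 6.11, 6.02 and 5.98 with the extract. It rose by 1.14 ± 0.14 on the high-fat diet (limma adjusted p = 0.0115) and stood at -1.15 ± 0.14 with the extract (0.0975). Col1a1 rose by 0.85 ± 0.12 on the diet (limma adjusted p = 0.0152) and stood at -1.05 ± 0.12 with the extract (0.0851). Against the regular diet the extract group stood at -0.01 for Col3a1 and at -0.20 for Col1a1, whereas Pparg stood at 0.58. High-fat diet replicate 1, the lowest array of its group for Pparg and Cd36, was also the lowest of its group for both collagens. Of the 11 measured hepatocyte markers, 2 fell on the high-fat diet, the urea cycle genes Cps1 (-0.66 ± 0.10, limma adjusted p = 0.0224) and Arg1 (-0.59 ± 0.10, 0.0255). Of all genes tested, 0.518% fell. Among the 11, 7 were higher and 4 lower, with a median of 0.01. The other lower ones were Ass1 (-0.75 ± 0.19, limma adjusted p = 0.119) and Hnf4a (-0.19 ± 0.08, 0.371). Their high-fat diet arrays lay below every regular diet array, as those of Cps1 and Arg1 did. Asgr1 (0.26 ± 0.07, limma adjusted p = 0.127), Cyp2e1 (0.08 ± 0.06) and Serpina1b (0.04 ± 0.06) were higher without overlap. Hnf4a, Asgr1, Cyp2e1 and Serpina1b were named after their values were seen. Lrat, the retinyl ester enzyme gene of stellate cells, was at 0.57 ± 0.12 with the extract against the high-fat diet (limma adjusted p = 0.427). Kdr, an endothelial growth factor receptor gene, was at -0.47 ± 0.11 on the high-fat diet (0.0744) and 0.42 ± 0.11 with the extract (0.591). Of the 11 endothelial markers, 3 were higher and 8 lower on the high-fat diet. With the extract against the high-fat diet, 8 were higher and 3 lower. Lyve1 went the other way from Kdr, at 0.52 ± 0.19 on the diet (limma adjusted p = 0.282) and -0.18 ± 0.19 with the extract (0.922).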
